A study of Homo sapiens with 3 samples.

Results

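Expression of the TCF/LEF transcription factors and the proteins that act with them was described in HCT-116 cells, a colon carcinoma line, with and without silencing of *APC*. The group was chosen by symbol, as the rows of the deposited gene table named *TCF7*, *TCF7L1*, *TCF7L2*, *LEF1*, *BCL9*, *BCL9L*, *PYGO2*, *TLE1*, *TLE3* and *CTBP1*, and all 10 were found among 23131 rows. The cells of every library are labelled APC wild-type and CTNNB1ΔSer45, which leaves β-catenin resistant to degradation, and had fewer than 20 passages. The anti-*APC* cells were transfected 2 times, on consecutive days, with a pool of siRNA against *APC*, and RNA was taken 48 hours after the second transfection. The control is labelled untransfected in its title while its treatment labels describe a mock transfection, with reagent and no siRNA. The deposited gene table has no values for the library with scrambled siRNA, which was not analysed here. In the values used, effects of *APC* loss and of siRNA delivery therefore cannot be told apart. There was 1 library per condition, so no difference below has a replicate check and no test of the conditions was possible.

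TCF/LEF proteins bind DNA at WNT-responsive genes through an HMG box and by themselves do not activate transcription. In the absence of a WNT signal they hold Groucho/TLE corepressors at these genes, and when β-catenin accumulates it takes their place and brings BCL9 and Pygopus, which connect it to the transcription machinery. APC belongs to the complex that marks β-catenin for degradation, and TCF7L2 is the main TCF/LEF protein of intestinal epithelium.

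The values are FPKM, fragments per kilobase of transcript and per 1000000 mapped reads, so levels can be compared between genes. The table gives no read counts, but 403 of 3408 low rows shared 1 ratio between the libraries, taken as that of an equal number of reads in each. At this step 1 read was worth 0.13 more on the log2 scale in the anti-*APC* library. Of 55 such genes with 1 annotated transcript, 15 lay in the densest band of FPKM times length, taken as the level of 1 read. They placed the depth near 24700000 reads for untransfected and 22600000 for anti-*APC* cells, and the other genes fell outside the band. Intervals given here are 95% intervals from the read numbers these depths imply. The intervals cover counting error only, not the spread between cultures. They depend on this estimate of depth and on the transcript length taken from the annotation. *APC* had 3.43 FPKM in the anti-*APC* library and 9.15 FPKM in the untransfected one, so 0.375 of its transcript level was left. *CTNNB1*, which encodes β-catenin, had 178 and 177 FPKM in the same order. *AXIN2*, a feedback inhibitor and standard WNT target, was higher with anti-*APC* siRNA by a log2 ratio of 2.81. Of 10 colon epithelial markers, 6 had a mean of at least 1 FPKM and all 6 were lower with anti-*APC* siRNA, with a median log2 ratio of -0.35. Over all genes with such a mean, 58.6% were lower and the median was -0.05. *EPCAM* had 170 and 190 FPKM with and without anti-*APC* siRNA, and the keratin genes *KRT8*, *KRT18* and *KRT19* had log2 ratios of -0.30, -0.45 and -0.41. The part of these differences in the results below was not tested. The summed level of the 10 was 1295 and 1650.0 FPKM. Of them 1 (*CDH1*, E-cadherin, at 12.1 and 19.0 FPKM) was lower by more than 1.5-fold, beside 6.61% of all genes with a mean of at least 1 FPKM. A further 4 (*KRT20*, *CDX1*, *VIL1* and *LGALS4*) were under 1 FPKM in both libraries. The 8 markers of other cell types summed to 3.33 and 3.39 FPKM, nearly all from *COL1A1*, and each of the other 7 stayed at or under 0.443 FPKM.

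None of the 8 measured genes of the group differed by 1.5-fold or more, and the largest difference was in *TCF7*, which was 1.47-fold higher with anti-*APC* siRNA. Of the 10 genes, these 8 were above 0 with a mean of at least 1 FPKM, and 2, *LEF1* and *BCL9L*, were listed at 0 in both libraries. Among all 12063 genes above 0 in both libraries with a mean of at least 1 FPKM, 9.17% differed by 1.5-fold or more, 2.56% upward and 6.61% downward. With a mean of at least 5 FPKM, which each of the 8 had, the share was 5.79%. With 8 genes the count past 1.5-fold is too small to read as a result about the group. At a lower limit, a log2 ratio of 0.32 in either direction, 1 of the 8, *TCF7*, was past it, against 25.6% of all genes (7.17% higher and 18.4% lower), and *TLE3* lay just inside it at 0.31. With anti-*APC* siRNA 3 of the 8 were higher and 5 lower, and 58.6% of all genes were lower. Their median log2 ratio was -0.09 and that of all 12063 genes was -0.05. The ratios of 6 of the 8 lay between the quartiles of all genes (-0.24 and 0.11), and the other 2, *TCF7* and *TLE3*, lay above the upper quartile.

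**Figure D1:**
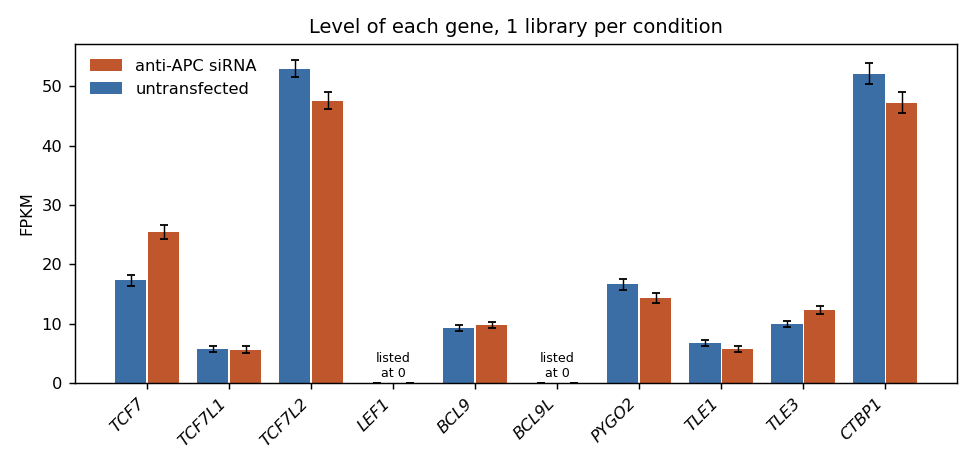
FPKM (y axis, linear from 0) of the 10 genes in the untransfected (blue) and the anti-*APC* library (orange). Error bars are 95% counting intervals and do not show spread between cultures. *TCF7L2* and *CTBP1* stand near 50 FPKM in both libraries, the error bars of *TCF7* and of *TLE3* do not overlap between libraries and the anti-*APC* bar is the taller, and *LEF1* and *BCL9L* are listed at 0.

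*TCF7L2*, on the plus strand of chromosome 10 of GRCh37 (114710006 to 114927437), was the most abundant of the measured TCF/LEF transcripts. It had 47.6 FPKM in the anti-*APC* library (interval 46.2 to 49.0) and 53.0 FPKM in untransfected cells (51.6 to 54.4), so it was lower with anti-*APC* siRNA by a log2 ratio of -0.16 (-0.21 to -0.10). This difference was larger than counting error, but 34.9% of all genes had a lower ratio. *TCF7L2* has 31 annotated transcripts, and its gene-level value does not separate them.

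*TCF7* encodes TCF1, and its locus is known to yield full-length proteins as well as shorter ones that lack the β-catenin-binding end. It lies on the plus strand of chromosome 5 (133450372 to 133487556) and had 25.4 FPKM (24.3 to 26.6) in the anti-*APC* library against 17.3 FPKM (16.4 to 18.2) in untransfected cells. The intervals did not overlap. The log2 ratio was 0.55 (0.45 to 0.65), and 2.79% of all genes had a higher one. Once the median ratio of all genes was subtracted *TCF7* was 1.52-fold higher, so its place at the 1.5-fold limit depends on scaling. The 24 annotated transcripts of *TCF7* are not separated in the table, so it was not tested whether full-length or truncated forms account for the difference. The longest annotated forms overlap exons of *SKP1* on the opposite strand, and the library kit does not record strand. *SKP1* had 93.9 FPKM with and 105 FPKM without anti-*APC* siRNA, and the table has no second row at the *TCF7* locus as its own annotation draws it.

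*TCF7L1*, which encodes TCF3, a member of the family known mainly as a repressor, lies on the plus strand of chromosome 2 (85360515 to 85537510). It had 5.58 FPKM in the anti-*APC* library and 5.73 FPKM in the untransfected one. Its log2 ratio of -0.04 had an interval from -0.24 to 0.17 that holds 0, so no difference beyond counting error was seen. *LEF1*, on the minus strand of chromosome 4 (108968701 to 109090112), was listed at 0 in both libraries with the mark NOTEST, by which Cuffdiff leaves a gene untested. Of 6140 rows with this mark, 3881 were at 0 in both libraries, but the mark alone does not show that reads were few, since *DAXX* carries it at 46.6 and 45.3 FPKM and *EHMT2* at 26.6 and 31.0 FPKM, both on alternative haplotypes of chromosome 6. Nor does the mark itself set a level to 0, since *PTPRC* carries it at 0.00812 and 0.0148 FPKM, the level of 1 read and 2 reads. The listed 0 of *LEF1* thus gives no sign of assigned reads, but its read count is not given. The antisense transcript *LEF1-AS1*, which the table names LOC641518 at the same locus, was also listed at 0.

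The 4 TCF/LEF genes summed to 78.6 FPKM with anti-*APC* siRNA and to 76.0 FPKM without, while their composition differed. *LEF1*, whose read count is not given, entered at its listed 0, so the sums and shares describe *TCF7L2*, *TCF7* and *TCF7L1* only. *TCF7* made up 32.3% of the sum with and 22.8% without anti-*APC* siRNA, and *TCF7L2* made up 60.6% and 69.7%. *TCF7L1* held 7.10% and 7.54%. There were 1.87 units of *TCF7L2* transcript per unit of *TCF7* in the anti-*APC* library and 3.06 in untransfected cells. The ratio of *TCF7* to *TCF7L2* was therefore 1.63-fold higher with anti-*APC* siRNA, 0.71 on the log2 scale (0.59 to 0.82). This ratio is taken within each library, so it does not depend on how the libraries were scaled to each other. The ratio of *TCF7L1* to *TCF7L2* differed by 0.12 on the log2 scale (-0.09 to 0.32), which is within counting error.

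**Figure D2:**
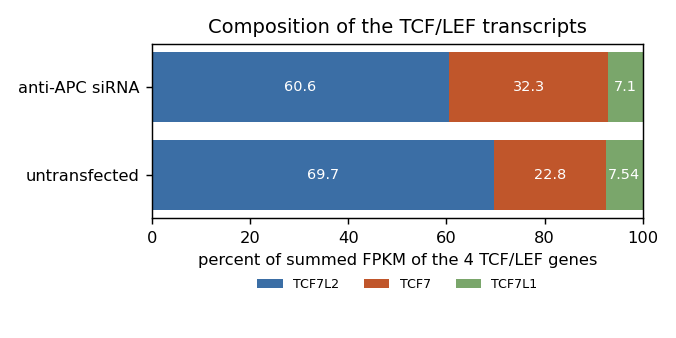
Percent of the summed FPKM of *TCF7L2* (blue), *TCF7* (orange) and *TCF7L1* (green), x axis, in the untransfected and the anti-*APC* library. *LEF1* is part of the sum and is listed at 0. The *TCF7* segment takes 22.8% without and 32.3% with anti-*APC* siRNA.

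Of the measured TCF/LEF factors, *TCF7* had the largest difference and *TCF7L2* was the most abundant. The sequences before their annotated starts were searched for the TCF/LEF motif, to show whether the letters these proteins recognise lie there. The motif was taken as CAAAG after 2 bases that are each A or T, on either strand, within the 250 bases before each RefSeq start (GRCh38.p14 table, placed on GRCh37 by exact match). It was present in 12.0% of 35116 such windows, and in 2 of the 16 windows of the 9 genes of the group that have one (12.5%), 1 of 2 windows for *TCF7* and 1 of 3 for *TCF7L2*. Those with a match and the first start of *TCF7L2* are shown 5′ to 3′ on the plus strand, with the motif in capitals. The motif begins 50 bases before the second *TCF7* start, which lies inside an intron of the gene (chr5:133459059-133459308), and 133 bases before the second *TCF7L2* start, also intronic (chr10:114886142-114886391), where it is on the opposite strand and reads CTTTGTT here. The window of the first *TCF7L2* start (chr10:114709756-114710005) holds none.
*TCF7* second start: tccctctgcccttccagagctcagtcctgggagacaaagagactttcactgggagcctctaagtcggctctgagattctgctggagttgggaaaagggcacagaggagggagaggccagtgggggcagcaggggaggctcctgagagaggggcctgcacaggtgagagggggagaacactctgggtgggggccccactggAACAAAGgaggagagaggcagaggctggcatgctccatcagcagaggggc
*TCF7L2* second start: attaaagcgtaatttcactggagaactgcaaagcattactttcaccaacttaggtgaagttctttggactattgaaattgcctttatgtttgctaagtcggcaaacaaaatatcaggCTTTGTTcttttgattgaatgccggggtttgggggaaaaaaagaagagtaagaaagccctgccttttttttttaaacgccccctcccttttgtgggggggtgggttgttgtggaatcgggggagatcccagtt
*TCF7L2* first start: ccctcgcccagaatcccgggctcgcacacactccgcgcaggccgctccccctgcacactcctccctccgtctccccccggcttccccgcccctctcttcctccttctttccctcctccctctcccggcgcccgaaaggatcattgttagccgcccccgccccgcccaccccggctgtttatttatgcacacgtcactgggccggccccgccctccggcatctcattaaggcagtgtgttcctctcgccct

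A match is a string of letters only, and binding was not measured in these libraries. The share of windows with a match was close to that of all windows, so it is no result about the group.

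Of the adaptors that join β-catenin to the transcription machinery, *BCL9* and *PYGO2* had a mean of at least 1 FPKM and neither was past 1.5-fold. *BCL9*, whose protein binds β-catenin directly and holds Pygopus, lies on the plus strand of chromosome 1 (147013271 to 147098017). It had 9.75 FPKM in the anti-*APC* library and 9.20 FPKM in the untransfected one, a log2 ratio of 0.08 with an interval of -0.03 to 0.19 that holds 0. *PYGO2*, on the minus strand of chromosome 1 (154929502 to 154936329), encodes a reader of methylated histone H3 and is a Pygopus protein. It had 14.3 FPKM (13.5 to 15.2) with and 16.6 FPKM (15.7 to 17.6) without anti-*APC* siRNA, a log2 ratio of -0.21 (-0.33 to -0.10). Its intervals did not overlap, and 27.6% of all genes had a lower ratio. There were 0.680 units of *BCL9* per unit of *PYGO2* in the anti-*APC* library and 0.554 in untransfected cells, a difference of 0.30 on the log2 scale (0.14 to 0.46).

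*BCL9L*, the paralog of *BCL9* on the minus strand of chromosome 11 (118764584 to 118796635), has no usable value. It was listed at 0 in both libraries, as were *CXCR5* and *MIR4492*, the other rows at its locus, and all 3 carry Cuffdiff's mark FAIL. All 269 rows with that mark are at 0 in both libraries, and they include genes of general use such as the histone acetyltransferase *KAT5* and the p120 catenin gene *CTNND1*. Of the 36-base stretches of *BCL9L* transcript, 21.6% also occur in transcripts of other genes, nearly all in *CXCR5*, which overlaps it on the opposite strand. The paralog *PYGO1* was low, at 0.225 FPKM in the anti-*APC* library and 0.925 FPKM in the untransfected one. These levels correspond to about 45 and 203 reads and a log2 ratio of -2.04 (-2.54 to -1.57), but its mean was under 1 FPKM and it is in no count here.

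The corepressors *TLE1* and *TLE3*, homologs of Drosophila Groucho, differed in opposite directions. *TLE3*, on the minus strand of chromosome 15 (70340129 to 70390515), had 12.3 FPKM (11.7 to 12.9) in the anti-*APC* library and 9.89 FPKM (9.38 to 10.4) in untransfected cells. It was 1.24-fold higher with anti-*APC* siRNA, with a log2 ratio of 0.31 (0.21 to 0.42) and intervals that did not overlap, and 7.52% of all genes had a higher ratio. *TLE1*, on the minus strand of chromosome 9 (84198598 to 84304462), had 5.70 FPKM (5.23 to 6.21) with and 6.71 FPKM (6.21 to 7.22) without anti-*APC* siRNA. Its log2 ratio was -0.23 (-0.40 to -0.07), and 25.7% of all genes had a lower one. Part of its sequence is shared with the pseudogene *TLE1P1* and with *TLE4*, since 8.80% of its 36-base stretches occur in other genes. The microRNA gene *MIR629*, at the *TLE3* locus, was listed at 0 in both libraries. The ratio of *TLE3* to *TLE1* was 2.15 with and 1.48 without anti-*APC* siRNA, which is a difference of 0.55 on the log2 scale (0.35 to 0.74).

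*CTBP1*, which encodes a corepressor that recruits histone deacetylases and demethylases, lies on the minus strand of chromosome 4 (1205233 to 1244121). It had 47.3 FPKM (45.5 to 49.1) with anti-*APC* siRNA and 52.1 FPKM (50.3 to 54.0) without. The log2 ratio was -0.14 (-0.22 to -0.07), and 36.6% of all genes had a lower one. Its value is less certain than the interval shows, because 29.4% of its 36-base stretches are shared with *CTBP1-AS* and *CTBP1-DT* on the opposite strand. The paralog *CTBP2* had 49.0 and 50.9 FPKM with and without anti-*APC* siRNA. *CTBP1* and *TCF7L2* kept nearly the same ratio to each other, with a difference of 0.01 on the log2 scale (-0.08 to 0.11).

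The order of levels was the same in both libraries, namely *TCF7L2*, *CTBP1*, *TCF7*, *PYGO2*, *TLE3*, *BCL9*, *TLE1* and *TCF7L1*. The first and second places were within counting error of each other in both libraries, as were the last and the one before it. In untransfected cells *TCF7* and *PYGO2*, at 17.3 and 16.6 FPKM, and *TLE3* and *BCL9*, at 9.89 and 9.20 FPKM, also had overlapping intervals. In the anti-*APC* library these pairs stood apart, at 25.4 and 14.3 FPKM and at 12.3 and 9.75 FPKM.

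**Figure D3:**
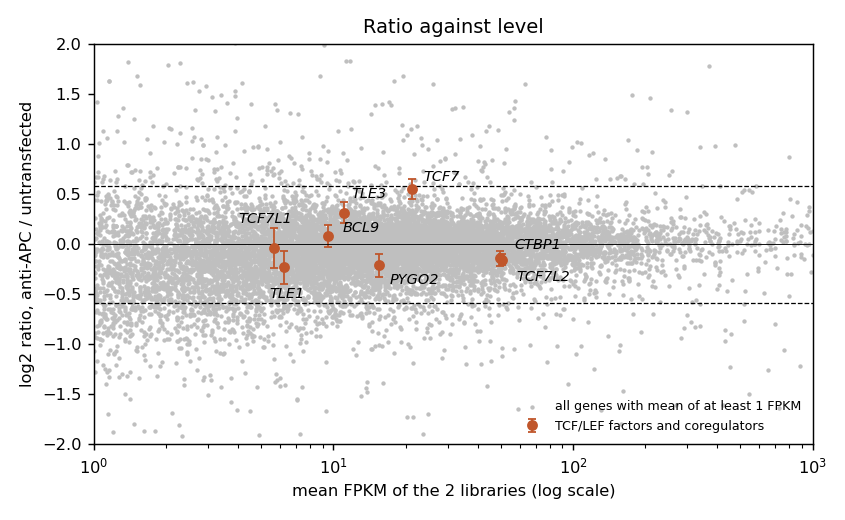
Log2 ratio of anti-*APC* over untransfected FPKM (y axis) against the mean FPKM of both libraries (x axis, log scale). Grey points are the genes above 0 in both libraries with a mean of at least 1 FPKM that fall within the axes, orange points the 8 measured genes of the group with 95% counting intervals, and dashed lines mark 1.5-fold. The 8 points lie between the dashed lines, with *TCF7* at 0.55 nearest to the upper one.

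The other Groucho-type genes were read from a list of the whole corepressor family. Of its 8 genes 7 had a mean of at least 1 FPKM, and none of these was past 1.5-fold, beside 9.17% of all genes. With 7 genes this count is too small to read as a result about the list. Of the 7, 1 was higher and 6 were lower, and the median log2 ratio was -0.14, beside 58.6% lower and a median of -0.05 over all genes. *TLE5* (listed as *AES*), a short family member that lacks the WD repeats and can antagonise the others, was the most abundant at 66.7 FPKM with and 86.3 FPKM without anti-*APC* siRNA, a log2 ratio of -0.37 (-0.44 to -0.30). *TLE2* had 7.08 and 7.34 FPKM, and *TLE6* 0.955 and 1.07 FPKM, in the same order. *TLE4* had 0.0611 and 0.00797 FPKM, the level of 7 reads and 1 read, so no change can be read from it. The summed level of *TLE1* to *TLE4* was 25.1 FPKM with and 23.9 FPKM without anti-*APC* siRNA, against 78.6 and 76.0 FPKM for the TCF/LEF sum.

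Genes that act on the same complex were counted by list. Over all genes with a mean of at least 1 FPKM, 9.17% differed by 1.5-fold or more, 2.56% upward and 6.61% downward. The coactivators linked to β-catenin (acetyltransferases, the Mediator kinase module, the Paf1 complex and others) had ratios close to 1. Of 21, 20 were measured and none was past 1.5-fold, a count too small to read as a result about the list. The 20 ranged from 0.866 (*KMT2A*, listed as *MLL*) to 1.26-fold (*CTR9*, a Paf1 subunit), with a median log2 ratio of 0.02. The acetyltransferase gene *CREBBP* had 14.2 and 13.5 FPKM with and without anti-*APC* siRNA, and *EP300* had 17.4 and 17.7 FPKM. Of the 20, 10 were higher and 10 lower, beside 58.6% lower over all genes. Of 6 genes of the scaffold that tethers Pygopus to TCF sites, 5 were measured and none was past 1.5-fold, also too small a count. *SSBP4* was the lowest of them at 11.0 FPKM with and 15.2 FPKM without anti-*APC* siRNA, and *LDB1* had 43.2 and 40.4 FPKM.

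Among 11 partners of CtBP, 10 were measured, with 1 higher and 1 lower by 1.5-fold, beside 2.56% higher and 6.61% lower over all genes. With 10 genes these counts are too small to read as a result about the list. *ZEB1*, a repressor known for its part in epithelial to mesenchymal transition, had 1.33 FPKM with and 0.848 FPKM without anti-*APC* siRNA, a log2 ratio of 0.65 (0.314 to 0.996) at a level close to the minimum. *ZNF217* had 9.38 and 14.2 FPKM, a log2 ratio of -0.60 (-0.70 to -0.50). *HDAC1* and *KDM1A*, the deacetylase and demethylase of the complex, had 128 and 132 FPKM with and 142 and 128 FPKM without anti-*APC* siRNA.

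The kinases and antagonists of the β-catenin/TCF complex had log2 ratios from -0.78 to 0.55. Of 16, 12 were measured, 1 was lower by 1.5-fold and none higher, and the median log2 ratio was 0.07. Over all genes 6.61% were lower and 2.56% higher by 1.5-fold, with a median of -0.05, so the count is no result about this list. *CBY1*, which encodes Chibby, a protein that binds β-catenin and keeps it from TCF, had 10.6 FPKM with and 18.3 FPKM without anti-*APC* siRNA, a log2 ratio of -0.78 (-0.996 to -0.565). *CTNNBIP1*, which encodes ICAT, another protein that blocks β-catenin from TCF, had 3.00 and 4.48 FPKM and lay just inside the limit, with a log2 ratio of -0.58 (-0.83 to -0.32). *HIPK2*, a kinase of TCF/LEF proteins, had 9.41 and 13.5 FPKM, a log2 ratio of -0.52 (-0.58 to -0.45). On the other side *SOX9*, an HMG-box factor that antagonises β-catenin and is itself WNT-responsive in intestine, had 44.5 FPKM with and 30.4 FPKM without anti-*APC* siRNA. Its log2 ratio was 0.55 (0.48 to 0.62), and 2.82% of all genes had a higher one. *TNIK*, the kinase that activates TCF7L2, had 14.1 and 13.2 FPKM.

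**Figure D4:**
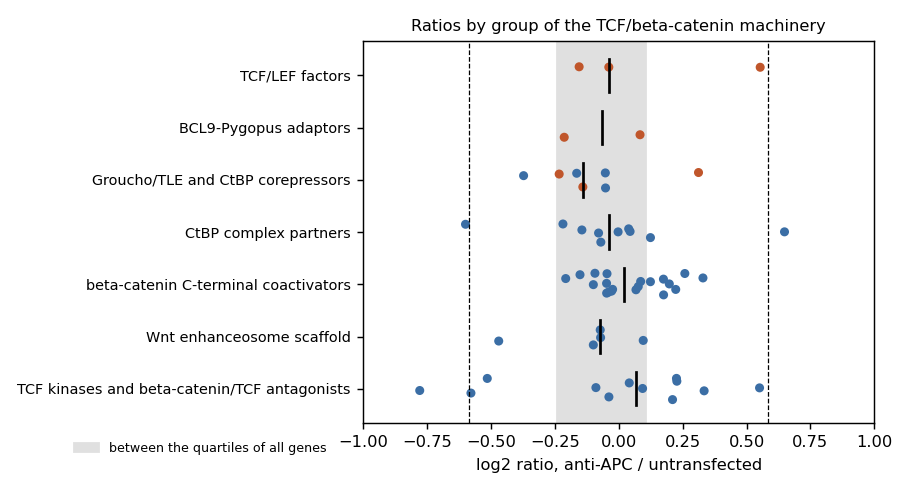
Log2 ratio of anti-*APC* over untransfected FPKM (x axis) for each measured gene of 7 lists (y axis). Orange points are the 10 genes' measured members, blue points other genes, black bars list medians, the grey band the quartiles of all genes (-0.24 to 0.11) and dashed lines 1.5-fold. Only *ZEB1*, *ZNF217* and *CBY1* lie past a dashed line.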

How the data were processed

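RNA from 3 libraries of HCT-116 cells was sequenced by the authors as single reads from TruSeq RNA libraries. Per the labels, Cufflinks and Cuffdiff were used on hg19, and their versions, the aligner, the annotation and the read length are not given in the sources used here. The deposited table holds, per gene symbol, FPKM computed by the authors for anti-*APC* and for untransfected cells, 1 library each. Its 4 other numeric columns give the authors' own comparison (ln fold change, its statistic, p-values and q-values) and were not used. The 10 genes and all lists were chosen with earlier results of these data known.

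Log2 ratios were computed without a pseudocount for genes above 0 in both libraries. Genes with a mean of at least 1 FPKM were counted, and 1.5-fold was used as the limit. Reads of a gene were estimated as FPKM times the length of its MANE Select transcript (GENCODE 44 on GRCh37) times the estimated depth. The depth came from genes within 0.005 on the log2 scale of the commonest ratio of genes summing to under 1 FPKM. Intervals are exact binomial for ratios, exact Poisson for levels and normal for differences of ratios. Table loci overlapped the GENCODE gene of the same symbol in 97.8% of 18781 rows. *AES*, *MLL* and *MLL2* were read as *TLE5*, *KMT2A* and *KMT2D* after their loci were compared. Stretches of 36 bases were compared among GENCODE transcripts. Genes named are the 10, their family lists, genes that share a locus with the 10, the genes of the other lists past 1.5-fold or, where none was, their highest and lowest ratio, and *APC*, *CTNNB1* and *AXIN2*. Others (*CTNNBIP1*, *HIPK2*, *SOX9*, *TNIK*, *CREBBP*, *EP300*, *HDAC1*, *KDM1A*, *KAT5*, *CTNND1*, *DAXX*, *EHMT2*, *CCND1*, *MYC*, *DKK1*, *NOTUM*, *KREMEN1*, *LGR5*, *ASCL2*, *RNF43* and the markers other than *CDH1*) were chosen after their values were seen. The alternatives were log2 limits of 0.32 and 1, FPKM minimums of 0.5, 5 and none, pseudocounts of 0.1 and 1, and median and upper-quartile scaling. The steps were tested on simulated data with Poisson counts and an exact length for each gene. Genes with several transcripts or uncertain lengths were not simulated. Python 3.11.15, numpy 2.4.6, pandas 2.3.3, scipy 1.17.1 and matplotlib 3.10.9 were used.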

Additional observations from a re-analysis of the deposited data

How the results depend on the processing

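The log2 ratios of the 8 measured genes stayed within their counting intervals under pseudocounts of 0.1 and 1 FPKM, median centring and upper-quartile scaling, in all 32 of 32 recomputations. The scalings only subtract -0.05 and -0.03 from every log2 ratio, and the pseudocounts are small beside the levels. Such small shifts could not leave the intervals, so this is no check of robustness. The sign changed in 1 recomputation, *TCF7L1* under median centring, where the ratio is within counting error of 0. *TCF7* ranged from 0.53 to 0.61, and 1 of the 10 genes (*TCF7*) was past the limit with median centring and at a log2 limit of 0.32, against 0 as reported. The share of all genes past the limit was 25.6% at a log2 limit of 0.32, 2.32% at 2-fold, 5.79% with a mean of at least 5 FPKM, 19.4% with no minimum and 5.60% with a pseudocount of 1 FPKM, against 9.17% as reported. At the log2 limit of 0.32 the counts became 1 for the TCF/LEF factors, 1 for the TLE and CtBP corepressors, 1 for the scaffold, 1 for the coactivators, 5 for the kinases and antagonists and 7 for the WNT target genes (6 as reported). With a mean of at least 5 FPKM they became 1 for the CtBP partners and 3 for the WNT target genes. With median centring, where 8.33% of all genes were past the limit, they became 1 for the TCF/LEF factors, 1 for the CtBP partners and 2 for the kinases and antagonists. Shares of reads in place of FPKM, which weight longer transcripts more, were 65.9%, 28.4% and 5.66% for *TCF7L2*, *TCF7* and *TCF7L1* with anti-*APC* siRNA and 74.5%, 19.6% and 5.90% without. Scrambled siRNA as the control was not run, and no library could be left out with 1 per condition. No paired analysis was possible because each condition has 1 library. At depths near 24700000 and 22600000 reads, *TLE4* rests on about 7 reads and 1 read, and *SP5*, which is counted as past the limit, on about 99 and 20.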

Other observations

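Genes that TCF/LEF factors are known to regulate gave a mixed picture in the same pair of libraries. Of 16 WNT target genes 11 had a mean of at least 1 FPKM, of which 4 were higher and 2 lower by 1.5-fold with anti-*APC* siRNA, and the median log2 ratio was 0.10. Over all genes 2.56% were higher and 6.61% lower by 1.5-fold, with a median of -0.05. *SP5*, a transcription factor, had 2.14 FPKM with and 0.394 FPKM without anti-*APC* siRNA. Besides *AXIN2* and *SP5*, the higher genes were feedback inhibitors of the pathway. *NKD1*, which acts on Dishevelled, had 3.44 FPKM with and 1.68 FPKM without anti-*APC* siRNA, a log2 ratio of 1.04 (0.90 to 1.17). *ZNRF3*, a ubiquitin ligase that removes Frizzled receptors, had 6.84 and 3.89 FPKM, a log2 ratio of 0.81 (0.67 to 0.96). The lower genes were *EPHB2*, a receptor of crypt progenitors, at 1.59 and 4.10 FPKM (log2 ratio -1.36, interval -1.53 to -1.20), and *CD44*, an adhesion receptor, at 71.3 and 111 FPKM (log2 ratio -0.64, interval -0.68 to -0.61). *CCND1* had 315 FPKM with and 246 FPKM without anti-*APC* siRNA. The remaining measured genes, *MYC*, *DKK1*, *NOTUM* and *KREMEN1*, had log2 ratios of 0.06, 0.07, 0.10 and 0.04. *LGR5*, a stem cell marker of the intestinal crypt, had at most 0.0271 FPKM in either library. *ASCL2*, another such marker, was listed at 0 in both with the mark NOTEST, and its read count is not given. *RNF43*, the paralog of *ZNRF3*, was listed at 0 in both with the mark FAIL. These values come from 1 library per condition, and their intervals cover counting error only.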
